A study of Mus musculus with 6 samples.

Results

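Hepcidin, the peptide hormone that closes the body's iron exporter, was followed with 9 other genes of iron transport, storage and sensing in hearts of mice with and without miR-1-2. The 10 genes (Hamp, Hfe, Tfrc, Tfr2, Slc40a1, Slc11a2, Fth1, Ftl1, Bmp6 and Trf) were taken by their symbols in the platform annotation. Hamp had been picked on its values in this same comparison, because it was lower in the knockout, so its difference is a description here and carries no test. The other 9 were added for their place in iron handling. Of 45101 probe sets on the array, 25 matched these symbols. Of the 25, 18 probe sets named a single one of these genes, 2 for Hamp and 16 tested for 7 other genes, 3 were control probe sets for Tfrc, and 4 were shared with other genes. Ftl1 and Trf had no probe set of their own, which left 8 of the 10 genes with one.

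Heart tissue taken at postnatal day 10 was measured on 6 arrays, 3 from wild-type mice and 3 from mice in which the miR-1-2 gene, a source of the muscle microRNA miR-1, was knocked out. The sources used here do not give strain, sex, litter, the kind of knockout allele or the part of the heart taken. The labels do not say that each array is a separate mouse, so p-values measure the spread between these samples only. The comparison asks which heart transcripts differ without miR-1-2. Values are RMA expression values on the log2 scale, on which a difference of 1 is a doubling. They ran from 2.64 to 14.59, with array medians of 6.03 to 6.11. Brightness also depends on the probes, so each probe set was compared only across arrays; brighter and dimmer tell probe sets apart and rank no RNA. The tissue label was checked on 10 cardiomyocyte markers, which averaged 13.58 to 13.71 on every array.

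Hepcidin is made mainly by liver, and also by heart muscle and macrophages. It binds ferroportin (Slc40a1), the only known exporter of iron from cells, and has it degraded, so that iron stays inside. Its gene is switched on by BMP6 through SMAD factors, with help from HFE, transferrin receptor 2 and hemojuvelin, and by interleukin 6 through STAT3. Cells take up iron bound to transferrin (Trf) through transferrin receptor 1 (Tfrc), move it into the cytosol through DMT1 (Slc11a2) and store it in ferritin, built of heavy (Fth1) and light (Ftl1) chains.

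The mouse has a second hepcidin gene, Hamp2, next to Hamp, and the regions before both genes are shown because the arrays measured both and their sequences are so alike. The 250 bases before each start are given 5′ to 3′ from RefSeq (GRCm38.p6), both on the minus strand: chr7:30944030-30944279 for Hamp and chr7:30924182-30924431 for Hamp2. Capitals mark 2 motifs that a script searched on both strands, GGCGCC, the core of the BMP-responsive element of hepcidin genes, and TTCTTGGAA, the STAT site of hepcidin genes.
Hamp: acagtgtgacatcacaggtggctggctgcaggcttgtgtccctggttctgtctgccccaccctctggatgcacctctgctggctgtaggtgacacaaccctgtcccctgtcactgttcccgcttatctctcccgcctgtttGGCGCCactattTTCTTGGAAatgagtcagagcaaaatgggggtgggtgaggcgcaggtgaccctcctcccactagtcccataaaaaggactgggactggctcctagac
Hamp2: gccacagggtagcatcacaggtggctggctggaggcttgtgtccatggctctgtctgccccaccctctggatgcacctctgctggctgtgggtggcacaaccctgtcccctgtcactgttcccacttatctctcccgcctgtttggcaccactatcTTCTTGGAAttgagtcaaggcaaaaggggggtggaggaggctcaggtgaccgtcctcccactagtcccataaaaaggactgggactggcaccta
In Hamp, GGCGCC lay 109 to 104 bases before the start and TTCTTGGAA 97 to 89 bases before it. The Hamp2 window held TTCTTGGAA and no GGCGCC. The windows shared 227 identical bases over 253 aligned columns, 89.7%. Among 32851 windows of this length in the RefSeq table, 9.59% held GGCGCC, 0.365% held TTCTTGGAA and 3 held both. For 7 of the 10 iron genes the table had at least 1 window, 11 in all. Besides Hamp, GGCGCC was found in 1 of the 2 Tfrc windows. A match is a stretch of letters, not a measured binding site.

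Hamp was lower in all 3 knockout hearts than in any wild-type heart on both of its probe sets. On 1419196_at, wild-type replicates 1 to 3 stood at 7.94, 7.24 and 7.35, and the knockout replicates at 6.41, 6.69 and 6.19. Wild type averaged 7.51 ± 0.38 (SD, n = 3) and knockout 6.43 ± 0.25. The difference was -1.08 ± 0.19 (SE) on the log2 scale, 2.11-fold lower. On 1419197_x_at, the brighter probe set, the wild-type arrays read 8.02, 7.54 and 7.66 and the knockout arrays 7.19, 6.92 and 6.73. Here the means were 7.74 ± 0.25 and 6.94 ± 0.23, a difference of -0.80 ± 0.14 (SE), or 1.74-fold lower. Wild-type replicate 1 was the highest array and knockout replicate 3 the lowest on both probe sets. The knockout values, 6.19 to 7.19, stood above the array medians of 6.03 to 6.11, and no detection call came with the values, so how much of the remaining signal is hepcidin RNA is not known.

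**Figure D1:**
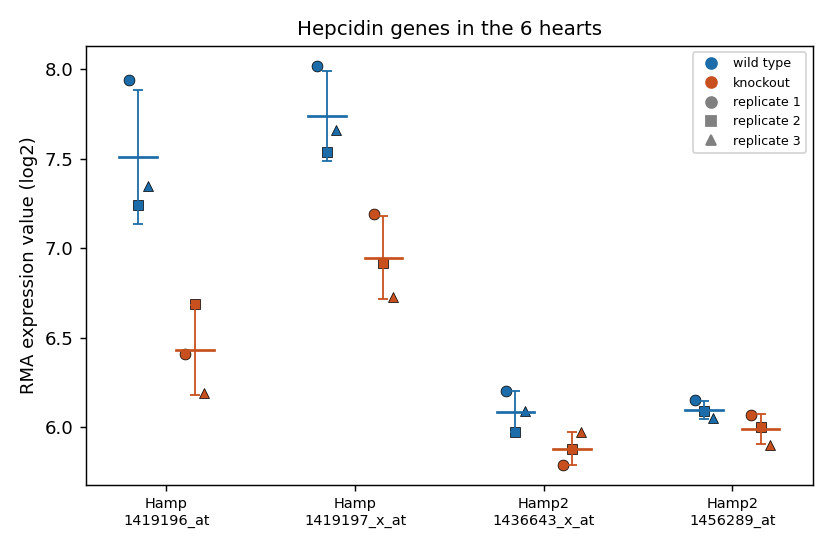
RMA expression value (log2, vertical axis) of the Hamp and Hamp2 probe sets in each heart. Points are arrays, coloured by genotype and shaped by replicate number; bars are the mean and SD (n = 3). The Hamp groups do not overlap on either probe set, and all Hamp2 values lie between 5.79 and 6.20.

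Compared within replicate number, Hamp was lower in knockout in 3 of 3 pairs on each probe set, as must follow where the groups do not overlap. The pair differences on 1419196_at were -1.53, -0.55 and -1.16, and on 1419197_x_at they were -0.83, -0.62 and -0.93. Blocking on the replicate number leaves the differences unchanged by design, and their standard errors were 0.15 and 0.084 with it. The size of the difference moved with the arrays used, from -1.21 to -0.86 on 1419196_at and from -0.92 to -0.66 on 1419197_x_at when 1 array at a time was left out. The smaller ends, -0.86 and -0.66, were reached without wild-type replicate 1.

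Hamp2 read close to the array medians in both groups. Its 1436643_x_at probe set read 6.20, 5.97 and 6.09 in wild type and 5.79, 5.88 and 5.97 in knockout, where the groups barely failed to overlap. The other, 1456289_at, ran from 6.05 to 6.15 in wild type and from 5.90 to 6.07 in knockout. The log2 differences of -0.21 ± 0.087 (SE) and -0.11 ± 0.076 did not pass (adjusted p = 1.00 for both). Probes of one hepcidin gene may also bind RNA of the other, so that the Hamp and Hamp2 values are not fully separate.

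Sex-linked and brown fat genes also differed between arrays. Xist, which silences one X chromosome in female cells, was at 11.91 to 12.13 in wild type and 12.19 in knockout replicate 2, and at 7.55 and 7.57 in knockout replicates 1 and 3. Eif2s3y, a gene of the Y chromosome, read 7.63 and 8.35 in knockout replicates 1 and 3 and 2.85 to 3.16 on the other arrays, so these values mark 2 knockout samples as male and the other 4 as female. Hamp in knockout replicate 2 was at 6.69 and 6.92. With the Xist level as a covariate Hamp differed by -0.85 and -0.83. That estimate rests mainly on knockout replicate 2, the only knockout array with Xist near the wild-type level. The part of sex in the Hamp difference was not tested. Ucp1, a brown fat gene, was at 9.45 and 10.39 in the first replicates and between 5.22 and 6.68 in the others. Wild-type replicate 1, at 9.45, was also the highest Hamp array. The part of brown fat in the Hamp difference was not tested. With replicates 2 and 3 only, Hamp differed by -0.85 and -0.78.

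Macrophage markers were lower in knockout beside Hamp. Of 15, 13 were lower, with a median of -0.25 where that of all genes was 0.00048, and the groups did not overlap for 8, all lower (4.28% of all genes). None passed over all genes. At an unadjusted p under 0.05 there were 7 (4.10% of all genes), and 9 with the block (7.29%). The mean of the list was 6.80 to 7.10 in wild type and 6.61 to 6.80 in knockout, highest in wild-type replicate 1 and lowest in knockout replicate 3, the arrays with the highest and the lowest Hamp. Mrc1 (CD206) stood at 7.65 ± 0.18 (SD, n = 3) against 7.21 ± 0.25, Lyve1 at 7.08 ± 0.14 against 6.69 ± 0.20, and Cd68 at 6.31 ± 0.11 against 5.98 ± 0.10. These 3 had the smallest p of the list. Marco and Itgam (CD11b) were the 2 higher in knockout, by 0.086 and 0.027. C1qc, Csf1r, Fcgr1, Lyz2 and Timd4 were lower with groups that overlapped. Itgam, at 4.27 to 4.52, and Marco, Timd4 and Cd163 read under the array medians of 6.03 to 6.11, where signs mean little. The part of these cells in the Hamp difference was not tested. In whole tissue, fewer cells of a type and less RNA per cell cannot be told apart.

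**Figure D2:**
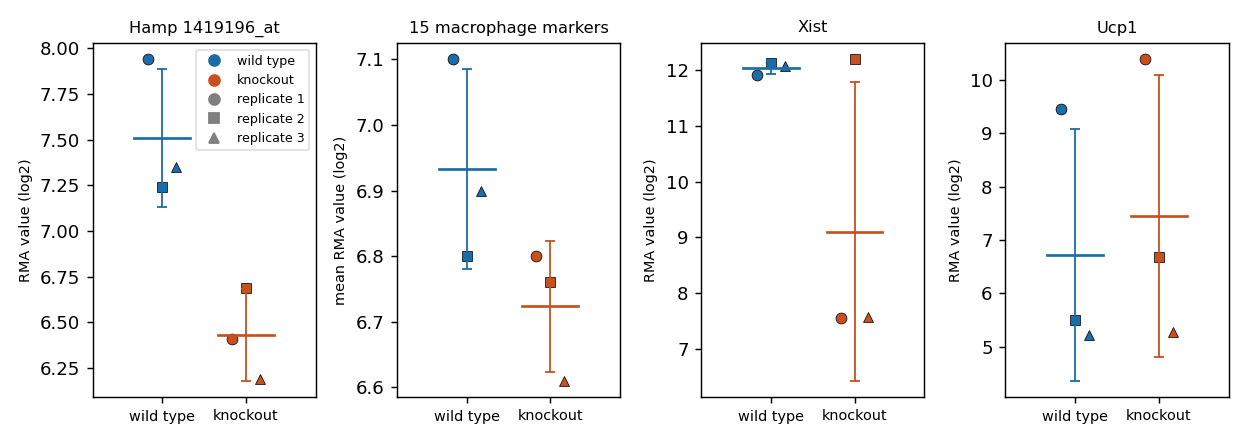
RMA value (log2) of Hamp 1419196_at, of Xist and of Ucp1, and the mean of 15 macrophage markers, in each heart. Points are arrays, shaped by replicate number; bars are the mean and SD (n = 3). Hamp and the macrophage mean are both highest in wild-type replicate 1 and lowest in knockout replicate 3, Xist is low in knockout replicates 1 and 3, and Ucp1 is high in both first replicates.

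Of 12 liver markers, 4 were higher and 8 lower in knockout (median -0.018), and none passed, with a mean of 5.55 to 5.57 in wild type and 5.45 to 5.66 in knockout. Alb (albumin) stood at 6.16, 6.26 and 6.01 against 6.22, 6.09 and 6.09. The groups were apart for 1 of the 12, Afp (alpha-fetoprotein), at 4.71 ± 0.03 (SD, n = 3) against 4.54 ± 0.12. Of all genes, 4.28% were apart with knockout below. Afp, Fga, Fgb, Fgg and Serpina1b read under the array medians of 6.03 to 6.11, and Alb, Apoa2 and Tat read close to them. The part of liver RNA in the Hamp difference was not tested. Red cell markers, a list that includes Tfrc, were also mixed, with 4 of 10 higher and 6 lower. Their means were 6.27 to 6.33 against 6.21 to 6.34. Ermap, Epb42, Hemgn, Hba-a1, Gata1 and Rhag read under the array medians, where signs mean little. Of the brighter ones, Hbb-b2, a beta globin, differed by 0.27 and reached 9.52 in knockout replicate 3 against 8.55 to 8.95 elsewhere. Slc4a1 differed by 0.096, and Klf1 and Tfrc by -0.11 and -0.088. Of 10 endothelial markers 8 were higher (median 0.076), of 10 fibroblast markers 7 were lower (-0.017), of 9 brown fat markers 6 were higher (0.042), and of 10 cardiomyocyte markers 8 were higher (0.023).

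Beyond Hamp, the iron genes differed little between the genotypes. The other 7 genes with probe sets of their own had 16, of which 8 were higher and 8 lower in knockout, with a median difference of -0.0012 beside -0.0064 for all probe sets. None of the 16 passed in limma, either without or with a block for replicate number, where 0.00666% and 0.0444% of all 45037 probe sets passed. At an unadjusted p under 0.05 there was 1 without the block (3.94% of all probe sets) and 2 with it (6.49%). The largest difference was 0.21 in size. The groups were apart for 1 probe set with knockout above (4.05% of all) and for 0 with knockout below (4.65%).

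**Figure D3:**
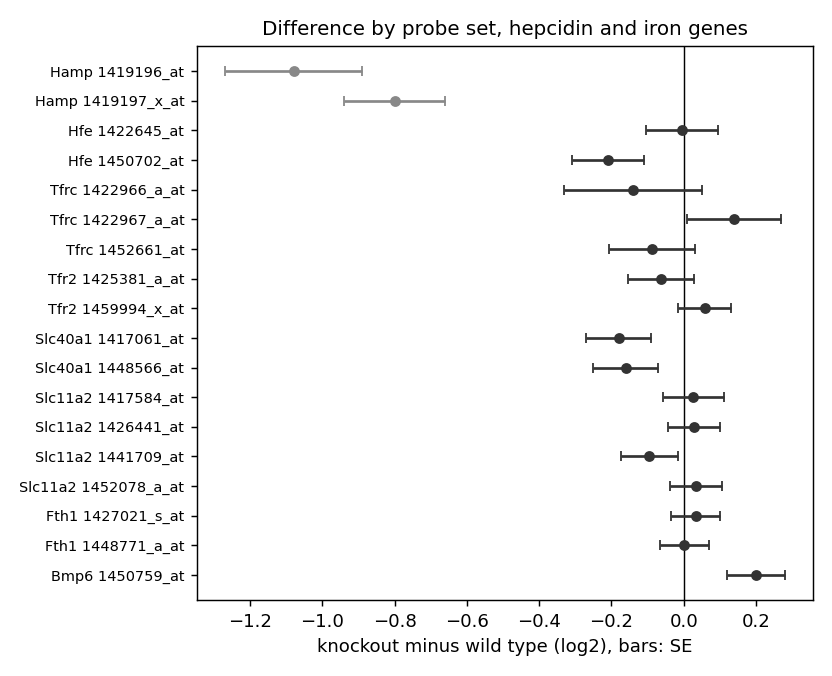
Log2 difference, knockout minus wild type (horizontal axis), of the 18 probe sets that name a single iron gene; bars are the SE of the limma fit (n = 3 per group). The grey Hamp points, at -1.08 and -0.80, were the reason Hamp was picked, and the other 16 lie within 0.21 of 0.

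Bmp6, the ligand that turns hepcidin on, was higher in all 3 knockout hearts than in any wild-type heart. The wild-type arrays read 6.94, 6.93 and 7.12, and the knockout arrays 7.17, 7.24 and 7.18. Its difference of 0.20 ± 0.079 (SE; 95% interval 0.024 to 0.38) did not pass (adjusted p = 1.00, and 0.728 with the block; unadjusted p = 0.0306). The differences within replicate number were 0.23, 0.32 and 0.064, all above 0 because the groups were apart. Of the 16 it was the only one with groups apart, on the side opposite to Hamp. Over all probe sets, 4.05% were apart with knockout above and 4.65% with knockout below.

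The sensors that act beside BMP6 gave no common direction. Hfe, the hemochromatosis protein that partners the transferrin receptors, differed by -0.21 ± 0.10 on 1450702_at, where wild type read 5.70, 5.53 and 5.41 and knockout 5.49, 5.30 and 5.24. That probe set was lower in 3 of 3 pairs and did not pass (adjusted p = 1.00, and 0.678 with the block; unadjusted p = 0.0683 and 0.0187). Without wild-type replicate 1 it differed by -0.13. The pairs and the block rest on replicate numbers alone, and replicates 2 and 3 correlated more when crossed. On the brighter Hfe probe set, 1422645_at, the arrays read 7.43, 7.17 and 7.05 against 7.25, 7.16 and 7.22, a difference of -0.0046 (95% interval -0.24 to 0.23). The Hfe probe sets thus differ in size, and the groups overlapped on both. Tfr2, the second transferrin receptor, stood at 7.54 ± 0.07 (SD, n = 3) against 7.48 ± 0.15 on 1425381_a_at and at 4.66 ± 0.04 against 4.72 ± 0.07 on 1459994_x_at. These differences, -0.063 and 0.058, had opposite signs.

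Tfrc, the receptor through which cells take up transferrin, read higher in the first replicate than in the third of both genotypes on all 3 tested probe sets, and showed no common direction between genotypes. Its brightest probe set, 1452661_at, read 11.32, 11.26 and 11.08 in wild type and 11.41, 10.97 and 11.01 in knockout, a difference of -0.088 ± 0.12 (SE; 95% interval -0.37 to 0.19). With 1 array left out it ran from -0.23, without knockout replicate 1, to -0.0083, without knockout replicate 2. On 1422966_a_at the arrays read 7.68, 7.34 and 6.98 against 7.54, 6.91 and 7.14, with a difference of -0.14, and on the dim 1422967_a_at they read 4.80, 4.91 and 4.61 against 5.22, 4.73 and 4.80, with a difference of 0.14. The Tfrc probe sets thus pointed both ways, and the groups overlapped on each.

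The array's control probe sets also read Tfrc, from the 3′ end, the middle and the 5′ end of the transcript. The 3′ probe set was at 4.83 to 5.13 in wild type and 4.75 to 5.10 in knockout. The gap from 3′ to 5′, a measure of how far the labelled RNA reached, was 1.72, 1.51 and 1.49 in wild type and 1.39, 1.32 and 1.36 in knockout, with no overlap. The 5′ signal, at 3.35 to 3.71, was near the floor. The same gap was 0.00 to 0.06 on every array for Gapdh, and for Actb 0.07 to 0.18 in wild type and 0.08 to 0.19 in knockout. Whether this gap has a part in the Hamp difference was not tested.

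Slc11a2, which encodes the iron importer DMT1, differed little. On its brightest probe set, 1417584_at, wild type read 6.97, 6.94 and 6.95 and knockout 7.11, 6.84 and 6.99, a difference of 0.027 ± 0.084 (SE; 95% interval -0.16 to 0.22). The other 3 probe sets differed by 0.029, 0.034 and -0.095. Knockout values fell on both sides of the wild-type values on the brightest probe set.

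Slc40a1, the exporter that hepcidin degrades, was lower in knockout in 3 of 3 pairs by replicate number on both probe sets, and the groups overlapped. The pairing is uncertain, since replicates 2 and 3 correlated more when crossed. Crossed so, 1417061_at is not lower in every pair, with wild-type replicate 3 at 7.77 and knockout replicate 2 at 7.78. On 1417061_at wild type read 7.96, 7.82 and 7.77 and knockout 7.53, 7.78 and 7.68, a difference of -0.18 ± 0.09 (SE; 95% interval -0.39 to 0.019). On 1448566_at the arrays read 7.53, 7.23 and 7.39 against 7.27, 7.22 and 7.17, a difference of -0.16 ± 0.09 (-0.37 to 0.039). Neither passed (adjusted p = 1.00 for both, and 0.808 and 0.803 with the block). The second pair differed by -0.039 and -0.0088. With replicates 2 and 3 only, 1417061_at differed by -0.061, and 1448566_at differed by -0.09 without wild-type replicate 1. Wild-type replicate 1 was again the highest array, as for Hamp and the macrophage markers. Macrophages carry much ferroportin, and the part of the macrophage marker difference in these values was not tested.

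Fth1, the ferritin heavy chain, was the steadiest, with ranges of 0.085 and 0.069 over the 6 arrays, the smallest of the 18 probe sets that name 1 of these genes. It read 13.13, 13.18 and 13.16 in wild type and 13.22, 13.19 and 13.16 in knockout on 1427021_s_at, and 12.89, 12.88 and 12.87 against 12.86, 12.87 and 12.93 on 1448771_a_at. The differences were 0.033 (95% interval -0.12 to 0.19) and 0.0021 (-0.15 to 0.16). At this brightness, near the top of the scale at 14.59, a change may be compressed. Ferritin is also controlled at translation, which RNA does not show.

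The light chain could not be read by itself, since its 3 probe sets are shared with the pseudogene Ftl1-ps2 and 1 of them with microRNA genes too. The brightest shared probe set, 1422302_s_at, read 10.76, 10.86 and 10.93 in wild type and 10.65, 11.07 and 11.03 in knockout. Another, 1418364_a_at, read 10.01, 10.21 and 10.29 against 9.94, 10.55 and 10.43, a difference of 0.14 ± 0.15 (SE), and in both the first replicate was the lowest of its genotype. The third, 1422301_at, differed by -0.025. One probe set is assigned to both Trf, the serum iron carrier, and Srprb, a subunit of the signal recognition particle receptor. It read 7.68, 6.92 and 7.22 against 7.28, 7.19 and 7.06, with a difference of -0.098 ± 0.17 (SE), and cannot be given to either gene.

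**Figure D4:**
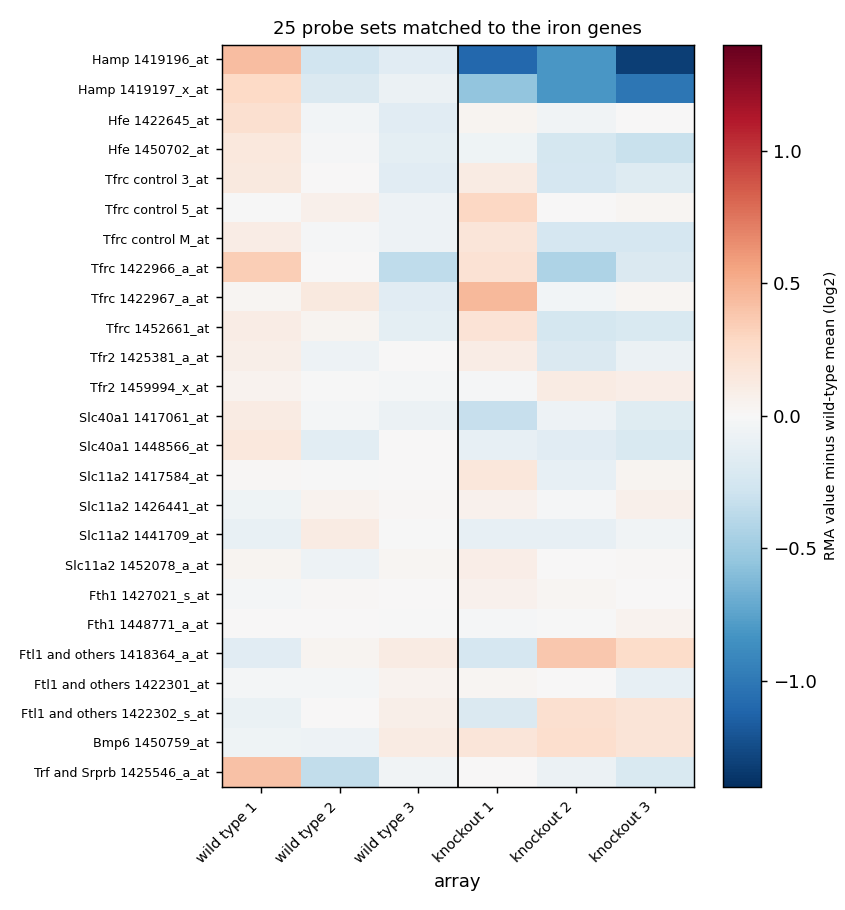
RMA value minus the wild-type mean (log2, colour) of all 25 matched probe sets (rows) in the 6 arrays (columns). The blue Hamp cells in the knockout columns are the strongest departures, and Tfrc is higher in the first replicate of both genotypes than in the third.

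The rest of the iron pathway was looked at through 5 lists with 107 measured genes, written with earlier results of these data known. None passed in limma, without the block (0% of all 18193 genes passed) or with it (0.0715%). Of the 107, 63 were higher and 44 lower in knockout, with a median of 0.01. At an unadjusted p under 0.05 there were 4 without the block, where 4.10% of all genes did so, and 8 with it, where 7.29% did. With arrays weighted by their quality 3 passed, Alas2, Blvrb and Cacna1c, all higher, in a fit where 416 of all genes passed. The groups were apart for 6 with knockout above and 6 with knockout below, beside 4.57% and 4.28% of all genes.

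Genes that control hepcidin were split, with 18 of 33 higher and 15 lower (median 0.005). Tmprss6, a liver protease that cuts hemojuvelin and so restrains hepcidin, stood at 7.57 ± 0.07 (SD, n = 3) against 7.41 ± 0.05, with the groups apart. Hjv, the BMP co-receptor hemojuvelin, which skeletal and heart muscle express, read 9.68, 9.35 and 9.52 against 9.36, 9.41 and 9.29, a difference of -0.16. Il6, the inflammatory inducer of hepcidin, was near the floor at 3.35 to 3.82 on all arrays. Id1, a target of BMP signalling, differed by 0.024, and Smad6 and Smad7, inhibitors and targets of the same pathway, by 0.12 and -0.075.

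Of 29 genes of iron uptake, transport and export, 14 were higher and 15 lower (median -0.011). Slc48a1, the lysosomal heme transporter HRG1, read 8.67, 8.62 and 8.68 in wild type and 8.88, 8.89 and 8.82 in knockout, with groups apart and a difference of 0.21 ± 0.066 (SE) that did not pass (adjusted p = 1.00). Cd163, the macrophage receptor for hemoglobin bound to haptoglobin, was at 5.23 ± 0.43 (SD, n = 3) against 4.77 ± 0.15, with wild-type replicate 1 at 5.72, and it is one of the macrophage markers above. Cacna1c, the L-type calcium channel through which iron can enter heart muscle, differed by 0.31 ± 0.16 (SE; adjusted p = 1.00, and 0.348 with the block). B2m, the light chain that carries HFE to the cell surface, read 10.70 to 10.73 in wild type and 10.77 to 10.94 in knockout.

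Of 17 genes in the storage and sensing list, 13 were higher and 4 lower (median 0.058). The list is wider than its name, since genes such as Gclc, Gclm and Nqo1 do not themselves store or sense iron. The smallest p-values belonged to Gclc and Gclm, the subunits of the enzyme that starts glutathione synthesis, to Nqo1, a quinone reductase, and to Pcbp2, an iron chaperone. These 4 differed by 0.15 to 0.19, none passed, and the groups overlapped for each. Hmox1, heme oxygenase, which frees iron from heme, read 7.05, 6.98 and 7.10 against 7.21, 6.98 and 6.93.

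Of 14 heme synthesis and breakdown genes, 8 were higher and 6 lower (median 0.02). Blvrb, a biliverdin reductase abundant in red cells, stood at 8.68 ± 0.06 (SD, n = 3) against 8.93 ± 0.12, and Alas2, the red cell enzyme that starts heme synthesis, at 8.86 ± 0.21 against 9.17 ± 0.27. Cpox, a later enzyme of the pathway, differed by -0.22, with knockout replicate 1 at 6.75 against 7.13 to 7.38 elsewhere, and Blvra by -0.11. Of 14 iron-sulfur cluster genes, 10 were higher and 4 lower (median 0.0097). Iba57, a late assembly factor, differed by -0.17 ± 0.067 (SE) with groups apart, Hscb by 0.046 with groups apart, Lyrm4 by 0.13 and Nfs1, the cysteine desulfurase, by -0.054. None of these 8 passed.

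**Figure D5:**
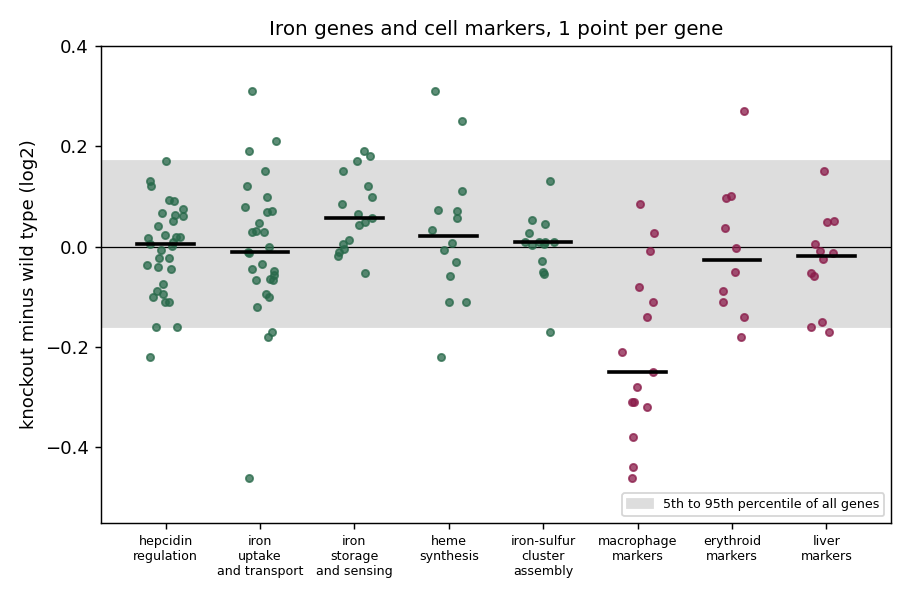
Log2 difference, knockout minus wild type (vertical axis), of each measured gene in the 5 iron lists (green) and in the macrophage, erythroid and liver marker lists (purple). Black lines are medians, and the grey band spans the 5th to 95th percentile of single genes, -0.16 to 0.17, a scale for the points and not for the medians. The macrophage median is -0.25, and the iron list medians run from -0.011 to 0.058.

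The genes whose profile was most like Hamp were sought among 931 genes that were brighter than the median gene and varied between arrays. The measure was the Pearson correlation with 1419197_x_at over the 6 arrays, given as a description. Highest were Rxrg (0.981), a retinoid X receptor, Iigp1 (0.98), an interferon-induced GTPase, Pf4 (0.979), platelet factor 4, Lrrc3b (0.977) and Limch1 (0.972). Rxrg read 7.89, 7.57 and 7.62 in wild type and 7.34, 7.33 and 7.11 in knockout. Pf4 read 8.90, 8.54 and 8.71 against 8.44, 8.35 and 8.26. Lowest were Irx5 (-0.995), a homeobox factor, Mt1 (-0.993), metallothionein 1, which binds zinc and copper, and Aldh1b1 (-0.99). Mt1 read 9.68, 9.98 and 9.90 in wild type and 10.12, 10.34 and 10.52 in knockout. All 8 genes separate the genotypes, as Hamp does, which was largely set by choosing them for their correlation with Hamp. Of the 931 genes, 21 (2.26%) had a correlation above 0.9.

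Among the iron genes themselves, the same correlation with Hamp was 0.89 for Slc40a1 on 1448566_at and 0.65 on 1417061_at. For Hfe it was 0.89 on 1450702_at and 0.31 on 1422645_at. Bmp6 ran the other way, at -0.80. For Tfrc it ranged from -0.14 to 0.53 over the 3 tested probe sets, and for Fth1 it was -0.53 and -0.22. These are correlations over the 6 arrays, which share the genotype difference.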

How the data were processed

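RNA extracted with Trizol was amplified in a single round and marked with biotin, as the labels' protocols state. Each deposited value is on the log2 scale and was computed by the authors as an RMA value, using affy in R, per the series' design text. The submitters' processing notes also name GCOS 1.4. RMA subtracts background, gives all arrays one distribution and combines probes into probe sets, so a change shared by most genes is removed and low values are compressed. Arrays have no read depth, and 3 per group limit the precision.

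Control probe sets (64) were left out of the fits. limma 3.58.1 under R 4.3.3 was fitted to 45037 probe sets, with p-values adjusted by Benjamini-Hochberg over all of them at 0.05. A second fit took 18193 genes, each by its brightest probe set naming 1 gene. One gene was named by 34945 probe sets, several by 932 and none by 9160. Symbols were updated through RefSeq identifiers, which matched 18031 genes. The gene fit without a block was tested on simulated data, and the other fits were not.

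Members, the 12 gene lists and the rule for names were chosen with earlier results of these data known. Named were all probe sets of the 10 genes, the 4 genes with the smallest p in each of 5 pathway lists, and the 5 genes most and 3 least like Hamp (SD of at least 0.2). Other genes, such as the markers, Id1, Smad6, Smad7 and Hmox1, were named after their values were seen. Levels of different genes were not ordered.

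The titles give both genotypes replicate numbers 1 to 3. Arrays with the same number deviated together from their group means, with correlations across genes of 0.54, 0.18 and 0.13. All exceeded 0.1, so the numbers were taken as pairs in the fit with the replicate block. The crossed pairs of replicates 2 and 3 correlated at 0.35 and 0.30, above the 0.18 and 0.13 of the matched ones. Their pairing is therefore uncertain. Alternatives covered single arrays left out, the replicate block, batch and Xist terms, normalization, array weights and filters.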

Additional observations from a re-analysis of the deposited data

How the results depend on the processing

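Both Hamp probe sets, Bmp6, both Slc40a1 probe sets and Hfe 1450702_at kept their direction in every alternative that included them. So did Tfrc 1452661_at, Tfr2 1459994_x_at, Slc11a2 1441709_at and Fth1 1427021_s_at. The block, the batch term, the trended variance and the brightness filter leave each difference unchanged by design and could not reverse it. For both Hamp probe sets and Bmp6 the groups were apart, so leaving out arrays could not reverse the direction either. Hamp ranged from -1.21 to -0.85 on 1419196_at and from -0.92 to -0.66 on 1419197_x_at over 16 alternatives. Bmp6 ranged from 0.17 to 0.27, Slc40a1 from -0.24 to -0.061 on 1417061_at and from -0.24 to -0.09 on 1448566_at, Hfe 1450702_at from -0.28 to -0.13 and Tfrc 1452661_at from -0.24 to -0.0083. None of the 16 other iron probe sets passed in any of these. Of 284 values of the 18 probe sets under alternatives, 24 changed sign, in 8 probe sets. With the replicate number as a block none of these 16 probe sets and no gene of the iron lists changed its call. Over the whole array, probe sets passing went from 3 to 20 and genes from 0 to 13. Array weights gave 24 passing probe sets, as did a batch term for the first replicates (24), a robust trended variance gave 6, and the Xist covariate and the brighter probe sets alone each gave 0. Leaving out 1 array gave 1 to 15, the highest without knockout replicate 2. Genes passing were 1 with replicates 2 and 3 only, 11 with the block without the first pair, 15 with the batch term, 416 under array weights and 3 with the mean of probe sets. Leaving out 1 array gave 0 to 4, the highest without knockout replicate 1. With array weights 3 iron list genes passed, Alas2 (0.48), Blvrb (0.31) and Cacna1c (0.46), where 0 did otherwise. The causes were not tested.

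The sign changes were as follows. Hfe 1422645_at was 0.084 with replicates 2 and 3 only, with and without the block, 0.026 with array weights, 0.017 with centred arrays, and -0.089 to 0.10 without 1 array. Tfrc 1422967_a_at was -0.037 with the Xist covariate and -0.012 to 0.24 without 1 array, and Tfrc 1422966_a_at -0.32 to 0.03. Tfr2 1425381_a_at was -0.14 to 0.0064 without 1 array. Slc11a2 1417584_at was -0.031 with replicates 2 and 3 only, with and without the block, -0.10 with the Xist covariate and -0.038 to 0.096 without 1 array. Slc11a2 1426441_at was -0.016, -0.016 and -0.019 in those fits and -0.0054 to 0.055 without 1 array, and 1452078_a_at -0.0041 with the Xist covariate and -0.0012 to 0.053. Fth1 1448771_a_at was -0.012 with the Xist covariate and -0.019 to 0.016 without 1 array.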
